A study of Sus scrofa with 22 samples.

Results

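The nuclear genes of the respiratory chain were examined in jejunal mucosa of Ossabaw pigs, animals that readily grow obese and are kept for studies of metabolic disease. Members were the rows whose symbol begins with NDUFA, NDUFB, NDUFC, NDUFS, NDUFV, SDH, UQCR, COX4, COX5, COX6, COX7, COX8 or ATP5 and that held at least 10 unique exon reads in at least 7 libraries. Of 24358 genes in each file, 66 carried such a symbol and 63 reached the minimum. By symbol, 25 belonged to complex I, 3 to complex II, 4 to complex III, 11 to complex IV and 11 to ATP synthase, and the other 9 were assembly factors (NDUFAF1, NDUFAF2, NDUFAF3, NDUFAF5, NDUFAF6, NDUFAF7, SDHAF1, SDHAF2 and SDHAF3), which help to build complexes I and II without staying in them. Just above the minimum stood COX8C, with 10 or more reads in 7 libraries and a median of 6 reads. Below it stood COX6B2, with at most 3 reads in a library, and COX7B2 and COX8H, with 0 reads in every library. Not every enterocyte marker looked for had a row, and all 12 that did were tested.

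The 22 libraries, each labelled with its own number, formed 3 groups. WD_S was 7 pigs fed a Western pattern (butter fat, cholesterol, refined carbohydrate, little fibre) with atorvastatin, a drug that blocks cholesterol synthesis. HHD_S was 8 pigs fed a heart healthy pattern (unsaturated oils, whole grains, fruit and vegetables, fish oil capsules of 1000 mg) with the same drug, and HHD was 7 pigs on the heart healthy pattern without it. Both patterns gave 38% of energy as fat for 6 months, and the drug was given at 20 mg per day at first and 40 mg per day later. The age and the sex of each pig are not in the labels. The Western pattern without drug was not analysed here, so the comparison of WD_S with HHD_S sets the patterns side by side only under the drug. The series text uses the abbreviation in the WD_S titles for the Western pattern without drug, and the sample labels were followed.

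Respiratory chain complexes sit in the inner mitochondrial membrane. Complexes I (NADH dehydrogenase) and II (succinate dehydrogenase) pass electrons to ubiquinone, complex III passes them to cytochrome c, and complex IV (cytochrome c oxidase) passes them to oxygen. ATP synthase makes ATP from the proton gradient that complexes I, III and IV build. Most subunits are made from nuclear genes and imported, while a small core set is encoded by mitochondrial DNA, except in complex II, whose subunits are all nuclear. In the small intestine the chain supplies the absorptive enterocyte, which spends ATP on transport and on packaging of fat.

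Library totals were 15.3 to 31.6 M unique exon reads, and levels are given as CPM, the count scaled to library size with TMM factors. Exon lengths were not at hand, so levels are compared between pigs and not between genes. Of the members, 62 entered the test across 13626 genes, COX8C being left out by its low counts. The 5 libraries with the highest numbers in their titles (HHD 6, HHD 7, HHD_S 7, HHD_S 8 and WD_S 7) stood apart from the others: 762 genes, or 5.59% of those tested, had an edgeR adjusted p under 0.05, and 22.5% an unadjusted p under 0.05. Of the 5, 1 is in WD_S, 2 are in HHD_S and 2 in HHD. The split was chosen after seeing the data, so these shares are no independent test of it. None of the 62 members was among the 762, and 10 had an unadjusted p under 0.05 by edgeR, all higher in those libraries. The smallest was that of SDHAF3 (log2 difference 0.46, SE 0.16, adjusted p = 0.0941 by edgeR). In all, 50 of the 62 were on the high side (median log2 difference 0.14), beside 7059 of 13626 genes (median 0.01). Members move together, as shown further on, so these are not 62 separate observations. Cell type markers differed in the same libraries: all 8 smooth muscle markers (median log2 difference -0.96) and 5 of 9 markers of fibroblasts and endothelium (median -0.70) were lower past the adjusted threshold by edgeR. Of the 7 T and natural killer cell markers all were on the high side (median 0.47), with 1 past that threshold, and their part in the member levels was not tested. The 2 library pools differed at 0.0% of genes past the adjusted threshold and at 4.42% past the unadjusted one, with COX7A1 as the only such member (log2 difference 0.19, unadjusted p = 0.0463, edgeR). What the title numbers stand for is not in the labels, and counts without these libraries are given below.

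Summed over all 63 members, the mean level was 7231 ± 738, 7540 ± 1241 and 7573 ± 768 CPM (SD) for the 7 WD_S, 8 HHD_S and 7 HHD pigs. The lowest, median and highest pigs had 6332, 7251 and 8332 CPM in WD_S. The same values were 6048, 7399 and 9740 CPM in HHD_S, and 6728, 7237 and 8783 CPM in HHD. The 3 groups overlapped between 6728 and 8332 CPM, and the spread among pigs of 1 group, up to 1.61-fold in HHD_S, was larger than any difference between group means. With TMM scaling the HHD_S group held both the lowest and the highest library of the study, which was not so with total counts.

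**Figure D1:**
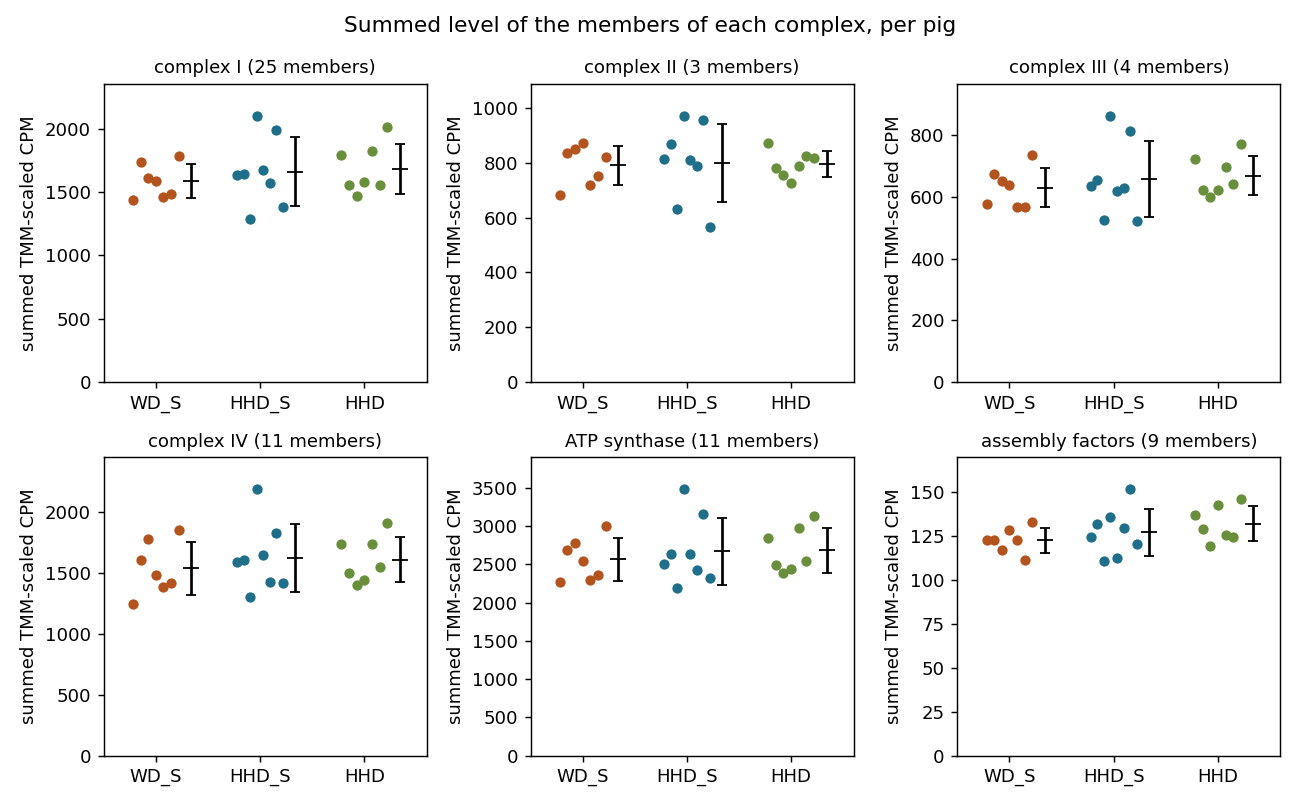
Summed TMM-scaled CPM (vertical axes, from 0) of the members of complexes I to IV, ATP synthase and the assembly factors in each pig (points), with the mean and SD of each group (black bars). In every panel the 3 groups overlap and the highest point is an HHD_S pig.

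The same picture held in each complex, as the plot of summed levels per pig shows. Complex I averaged 1588 ± 137, 1662 ± 276 and 1685 ± 196 CPM (SD) in WD_S, HHD_S and HHD, with 7, 8 and 7 pigs. Complex II averaged 791 ± 72.1, 801 ± 143 and 795 ± 48.0 CPM (SD) in the same order. Complex III averaged 630 ± 64.2, 658 ± 123 and 668 ± 63.6 CPM (SD), and complex IV averaged 1537 ± 219, 1622 ± 279 and 1608 ± 187 CPM (SD). ATP synthase averaged 2563 ± 276, 2670 ± 437 and 2685 ± 293 CPM (SD), and the assembly factors 123 ± 7.08, 127 ± 13.3 and 132 ± 9.93 CPM (SD). In bulk tissue a lower level can mean fewer cells of a type or less RNA per cell, and these cannot be told apart here.

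The first comparison, WD_S against HHD_S, asked how the dietary patterns differed while all pigs took the drug. None of the 62 tested members passed an adjusted p of 0.05 by edgeR, where 0.0% of all genes did. The count was also 0 by DESeq2 and by limma with quality weights. With an unadjusted p under 0.05 there was 1 member by each of the 3 tools (ATP5ME). Of all 13626 genes, 398 (2.92%) had such a p by edgeR, 438 by DESeq2 and 899 by limma. No member had groups that did not overlap in CPM, beside 0.0147% of all genes. The log2 fold change was negative (lower in WD_S) for 51 members, beside 52.9% of all genes, with a median of -0.05 over members and -0.01 over all genes. Members move together from pig to pig, as shown further on, so this count is not 62 separate observations. It also followed single libraries, since without HHD_S 4 the count of negative members was 32 and the median -0.004, while without WD_S 1 and without HHD_S 7 the count was 40 in each case. In library pool 3 alone 55 of 63 members were negative (median -0.11), and in pool 4 alone 23 of 63 (median 0.02). Without the 5 libraries of high title numbers 53 of 63 were negative (median -0.08). The 95% interval lay within 0.5 log2 units of 0 for 58 of the 62 members and within 1 for all 62.

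ATP5ME encodes subunit e of ATP synthase, a small membrane protein needed for dimers of the enzyme. Its level was 62.8, 69.8 and 89.3 CPM in the lowest, median and highest WD_S pig. It was 61.8, 87.9 and 134 CPM in HHD_S, and 65.7, 83.5 and 109 CPM in HHD. The lowest pig of all was in HHD_S, the group with the higher median. Within HHD_S the highest were HHD_S 4, HHD_S 7 (108.3 CPM) and HHD_S 8 (106.2 CPM). HHD 7, at 108.7 CPM, lay above the last 2 of these. The log2 fold change of WD_S against HHD_S was -0.33 (SE 0.145, 95% interval -0.63 to -0.03), with an unadjusted p of 0.0337 and an adjusted p of 0.9995 by edgeR. Without HHD_S 4 it was -0.25. The RefSeq annotation of Sscrofa11.1 places ATP5ME on chromosome 8 at 112092 to 113526.

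The next smallest p-values in that comparison belonged to members of different roles. SDHAF3, an assembly factor for the iron-sulfur subunit of complex II, had a log2 fold change of -0.27 (SE 0.199). UQCR10, a small subunit of complex III, had one of -0.23 (SE 0.166). NDUFAF7, a methyltransferase that acts during assembly of complex I, had one of -0.19 (SE 0.145), and NDUFB7, an accessory subunit of complex I, had one of -0.16 (SE 0.126). Each had an adjusted p of 0.9995 by edgeR, and each of these 4 genes had overlapping groups.

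For UQCR10 the lowest, median and highest levels in WD_S were 57.6, 60.0 and 90.5 CPM. In HHD_S they were 50.2, 68.7 and 112 CPM, and in HHD 66.7, 72.9 and 117 CPM. Of the 7 WD_S pigs, 6 lay at or under 71.0 CPM, and the 5 highest levels were those of HHD 7, HHD_S 7, HHD_S 4, HHD 1 and WD_S 7. Of these, HHD 7, HHD_S 7 and WD_S 7 are among the libraries with high title numbers, in which UQCR10 was higher by 0.37 on the log2 scale (unadjusted p = 0.0142, adjusted p = 0.117, edgeR).

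**Figure D2:**
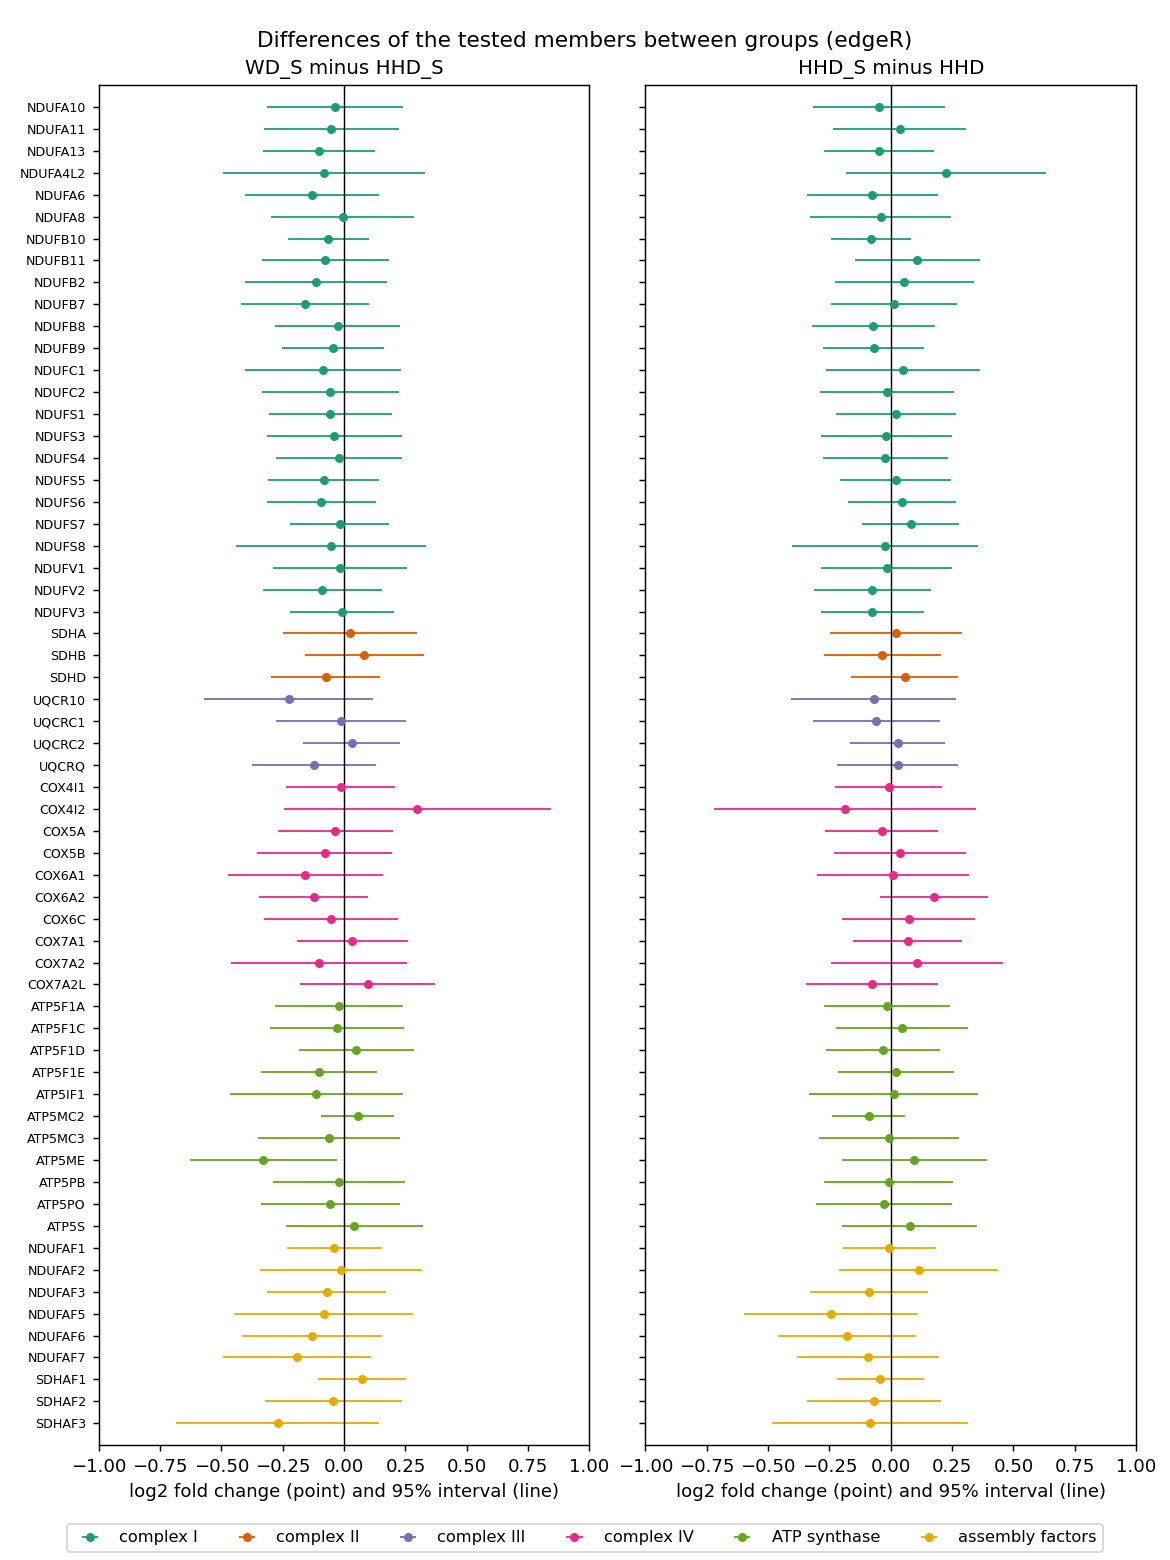
Log2 fold change (points, horizontal axes) and 95% interval (lines) of tested members, coloured by complex, for WD_S minus HHD_S and HHD_S minus HHD, from the edgeR fit. Only the interval of ATP5ME in WD_S minus HHD_S leaves out 0.

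The second comparison, HHD_S against HHD, asked what atorvastatin changed under the heart healthy pattern. It shares the HHD_S libraries with the first, and none of its 62 members passed the adjusted threshold by edgeR, where 0.0% of all genes did. DESeq2 and limma also gave 0. With an unadjusted p under 0.05 there were 0 members by edgeR and by DESeq2 and 1 by limma (NDUFAF5). Of all 13626 genes, 247 (1.81%) had such a p by edgeR, 276 by DESeq2 and 1274 by limma. Groups that did not overlap were found for 0 members and for 0.0147% of all genes. The fold change was negative for 36 members, beside 47.4% of all genes, and the medians were -0.01 over members and 0.01 over all genes. Without HHD_S 3 the count of negative members was 18 of 63 (median 0.03), and without HHD 7 it was 21 of 63 (median 0.03). The median was 0.04 within pool 3 and -0.11 within pool 4. The intervals of 59 members lay within 0.5 log2 units of 0.

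The smallest p-value belonged to COX6A2, the heart and muscle form of subunit 6A of complex IV. It was 16.9, 22.8 and 25.4 CPM in the lowest, median and highest HHD pig, and 20.2, 25.3 and 33.0 CPM in HHD_S. The log2 fold change was 0.18 (SE 0.106), with an unadjusted p of 0.109 and an adjusted p of 0.9993 by edgeR. Without HHD_S 8, the highest library for this gene, it was 0.11, without HHD 4, the lowest, it was also 0.11, and without both HHD_S 3 and HHD_S 8 it was 0.07. Of the assembly factors, NDUFAF5 stood at a log2 fold change of -0.24 (SE 0.172), and NDUFAF6 at -0.18 (SE 0.136). ATP5MC2, one of the genes for the rotating ring of ATP synthase, had -0.09 (SE 0.0719), and NDUFA4L2, a relative of NDUFA4 known for its induction in low oxygen, had 0.22 (SE 0.197). All 5 had an adjusted p of 0.9993 by edgeR.

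The third comparison, WD_S against HHD, combines pattern and drug and is the sum of the other two. No member passed the adjusted threshold by edgeR, DESeq2 or limma, where edgeR called 1 gene in all (0.00734%). An unadjusted p under 0.05 was found for 1 member by edgeR and by DESeq2 (NDUFAF6). Limma gave 4 such members (NDUFA6, NDUFAF7, SDHAF3 and UQCR10). Of all 13626 genes, 465 (3.41%) had such a p by edgeR, 521 by DESeq2 and 1290 by limma. Groups did not overlap for 0 members and for 0.0661% of all genes. The fold change was negative for 45 members, beside 51.0% of all genes, with medians of -0.05 over members and -0.004 over all genes. The count was 32 without HHD 5 and 33 of 63 without WD_S 1, and 50 of 63 without the 5 libraries of high title numbers. The intervals of 54 members lay within 0.5 log2 units of 0.

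NDUFAF6, an assembly factor of complex I, was 4.51, 6.23 and 6.59 CPM in the lowest, median and highest WD_S pig. It was 5.03, 6.21 and 7.47 CPM in HHD_S, and 5.72, 6.95 and 8.90 CPM in HHD. The WD_S and HHD pigs overlapped between 5.72 and 6.59 CPM. The log2 fold change of WD_S against HHD was -0.31 (SE 0.144, 95% interval -0.61 to -0.01), with an unadjusted p of 0.0422 and an adjusted p of 0.9997 by edgeR. It rested on 83 to 197 reads per library. The other small p-values were those of NDUFAF7 (log2 fold change -0.28, SE 0.15), NDUFAF5 (log2 fold change -0.33, SE 0.184), NDUFB10, an accessory subunit of complex I (log2 fold change -0.14, SE 0.0833), and SDHAF3 (log2 fold change -0.36, SE 0.209). Each had an adjusted p of 0.9997 by edgeR. NDUFB10 overlaps RPS2 and RPL3L, and NDUFAF7 overlaps PRKD3, in the RefSeq annotation, and whether reads were counted by strand is not given in the sources used here.

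Of the 25 complex I members, 24 had a negative fold change in WD_S against HHD_S (median -0.06), 15 in HHD_S against HHD (median -0.02) and 22 in WD_S against HHD (median -0.06). Over all genes the negative shares were 52.9%, 47.4% and 51.0%. Complex I members moved together most closely from pig to pig, so these counts are not 25 separate observations. The core subunit NDUFS1, which carries electrons from the NADH site, was 113, 133 and 151 CPM in the lowest, median and highest WD_S pig. NDUFS1 was 104, 131 and 183 CPM in HHD_S, and 107, 134 and 155 CPM in HHD. The medians of NDUFS1 lay within 3 CPM of each other, while the pigs of each group spanned far more. The assembly factors had 8, 8 and 7 negative members of 9 in the 3 comparisons, beside the same shares of all genes, with medians of -0.07, -0.09 and -0.16.

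Complex II members lay close to 0 in all 3 comparisons, between -0.08 and 0.08. SDHA carries the flavin that takes electrons from succinate. It was 304, 329 and 421 CPM in the lowest, median and highest WD_S pig, 199, 368 and 446 CPM in HHD_S, and 314, 340 and 381 CPM in HHD. SDHB, the iron-sulfur subunit, was 157, 202 and 256 CPM in WD_S, 144, 200 and 257 CPM in HHD_S, and 165, 200 and 236 CPM in HHD. The group medians of SDHB were almost level. SDHD, a membrane anchor, was 209, 252 and 287 CPM in WD_S, 216, 252 and 349 CPM in HHD_S, and 224, 239 and 291 CPM in HHD. SDHA lies on chromosome 16 at 79838442 to 79862956 in Sscrofa11.1 and overlaps CCDC127.

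In complex III the core proteins UQCRC1 and UQCRC2 lay close to 0 as well. UQCRC1 was 224, 230 and 289 CPM in the lowest, median and highest WD_S pig, 169.5, 263 and 331 CPM in HHD_S, and 238, 264 and 311 CPM in HHD. UQCRC2 was 198, 226 and 249 CPM in WD_S, 168, 212 and 293 CPM in HHD_S, and 201, 218 and 235 CPM in HHD. Their fold changes in the 3 comparisons lay between -0.07 and 0.06.

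ATP synthase ranged from steady to variable members. ATP5F1A, the alpha subunit of the catalytic head, was 521, 618 and 754 CPM in the lowest, median and highest WD_S pig, 401, 633 and 885 CPM in HHD_S, and 580, 663 and 758 CPM in HHD. ATP5F1C, the central stalk, was 216, 287 and 391 CPM in WD_S, 253, 292 and 460 CPM in HHD_S, and 263, 301 and 344 CPM in HHD. The inhibitor ATP5IF1, which keeps the enzyme from running backwards, was 107, 121 and 180 CPM in WD_S, 88.1, 134 and 189 CPM in HHD_S, and 104, 130 and 199 CPM in HHD. For all 3 genes the groups overlapped, with the lowest pig of ATP5F1A and ATP5IF1 in HHD_S and the highest of ATP5F1A and ATP5F1C there too. ATP5S, also known as factor B, was the least read of this set, with 3.72 to 6.02 CPM over all libraries. The reads of ATP5IF1 per read of ATP5F1A ranged from 0.156 in HHD 4 to 0.346 in HHD_S 8, with group means of 0.208 ± 0.0330 in WD_S (SD, n = 7), 0.219 ± 0.0566 in HHD_S (SD, n = 8) and 0.208 ± 0.0449 in HHD (SD, n = 7).

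Tissue-specific isoforms of complex IV were measured beside the common ones. COX4I1, the common form of subunit 4, ranged from 335 to 563 CPM, and COX4I2, known from lung, from 0.578 to 1.90 CPM with 11 to 46 reads. COX4I2 made up 0.135% to 0.529% of the reads of the pair. COX6A1 ranged from 206 to 475 CPM and its muscle form COX6A2 from 16.9 to 33.0 CPM, which was 4.61% to 11.95% of the pair. COX7A2 ranged from 76.9 to 190 CPM and its muscle form COX7A1 from 11.2 to 18.9 CPM, which was 7.91% to 15.2% of the pair. These are shares of reads, not of molecules, since lengths are not corrected.

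**Figure D3:**
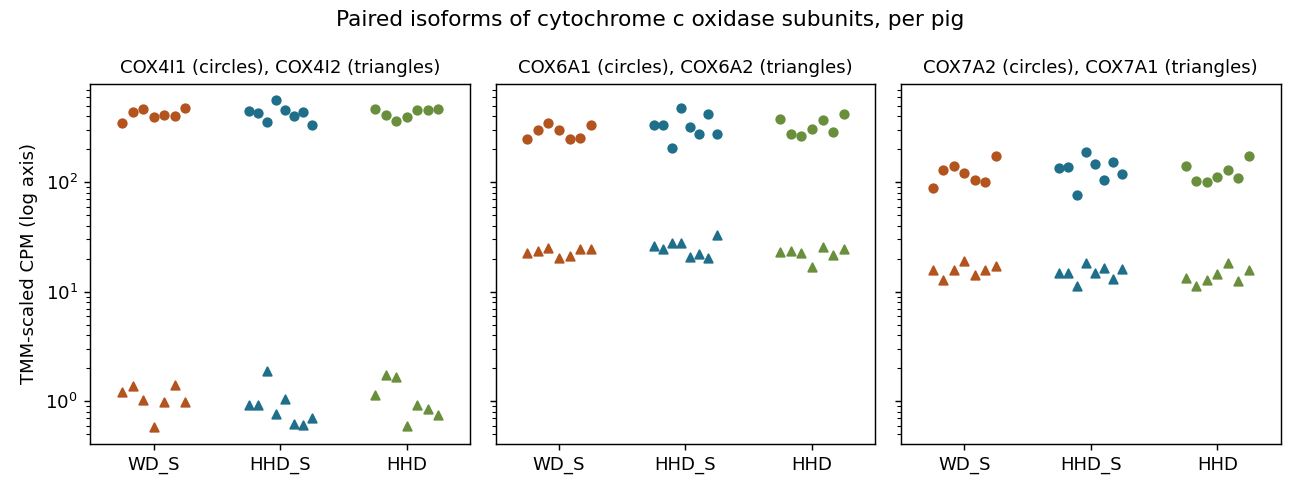
TMM-scaled CPM (log axis) of the common isoform (circles) and the tissue-specific isoform (triangles) of 3 subunits of cytochrome c oxidase, in each pig of the 3 groups. The common isoform lies above the other in every library, and the groups overlap for all 6 genes.

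The highest share of COX6A2 was in HHD_S 3, where COX6A1 was at its lowest (206 CPM), and the lowest share in HHD_S 7. The coefficient of variation over the 22 libraries was 14.1% for COX6A2 and 20.6% for COX6A1, and 14.5% for COX7A1 and 22.7% for COX7A2. Striated muscle markers were near absent: of 7 that had a row, 2 were tested, MYL1 was at 0 in every library, CKM was 0.406 to 1.91 CPM, and the summed level was 3.41 to 5.20 CPM in WD_S, 2.99 to 4.99 CPM in HHD_S and 2.84 to 5.24 CPM in HHD. Smooth muscle markers (8 of 8 tested) summed to 490 to 1214 CPM in WD_S, 370 to 1476 CPM in HHD_S and 392 to 1258 CPM in HHD, and their part in these levels was not tested. Of the other relatives, COX7A2L, which joins complexes III and IV in supercomplexes, was 53.9 to 105 CPM, and COX6C, an accessory subunit whose gene overlaps VPS13B, was 175 to 324 CPM. NDUFA4L2 was 1.52 to 3.996 CPM. COX8C had 1 to 72 reads and 0.0436 to 3.49 CPM.

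Members followed each other from pig to pig. Between members, the median pairwise Spearman rho over the 22 libraries was 0.479, and 89.2% of 1891 pairs were positive. Over all 13626 genes the median was -0.003 and 49.7% of pairs were positive. Complex I was highest, with a median of 0.643 over 300 pairs, of which 99.7% were positive. ATP synthase had 0.565, complex III 0.588, complex II 0.412 and complex IV 0.326. Assembly factors had 0.20 among themselves and 0.216 with the other members. These correlations describe libraries that share scaling to a total, and no test was made of them.

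The pattern was present within each group and each pool. The median over complex I pairs was 0.571 in WD_S, 0.738 in HHD_S and 0.679 in HHD. It was 0.72 in the 13 libraries of pool 3 and 0.517 in the 9 of pool 4. It was 0.623 without the 5 libraries of high title numbers and 0.604 without HHD_S 4. For all members the same medians were 0.464, 0.524 and 0.571 in the 3 groups, 0.571 and 0.383 in the pools, and 0.453 and 0.439 without those libraries.

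Against the mean of the other members, 47 of 62 members had a rho of at least 0.5 and 6 had one under 0.2. The members that follow were chosen by this value. COX5B, which binds zinc in complex IV, was closest (0.972), followed by COX6A1 (0.936), SDHD (0.935) and ATP5PB, the peripheral stalk of ATP synthase (0.896). COX5B was 128, 159 and 196 CPM in the lowest, median and highest WD_S pig, 124, 171 and 250 CPM in HHD_S, and 144, 160 and 190 CPM in HHD. At the other end, SDHAF1 (-0.368) and COX4I2 (-0.340) ran against the rest, and NDUFAF2 (0.141), NDUFAF7 (0.144), COX6A2 (0.162) and NDUFAF5 (0.165) hardly followed it. Of the 6 with the lowest rho, 4 were assembly factors and the other 2 were tissue-specific isoforms of complex IV. Reads per library were 11 to 46 for COX4I2, 48 to 131 for NDUFAF5, 67 to 178 for NDUFAF2 and 72 to 175 for NDUFAF7. SDHAF1 had 184 to 391 reads and COX6A2 311 to 707, while ATP5S had 77 to 138 with a rho of 0.676. The part of low counts in these values was not tested.

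**Figure D4:**
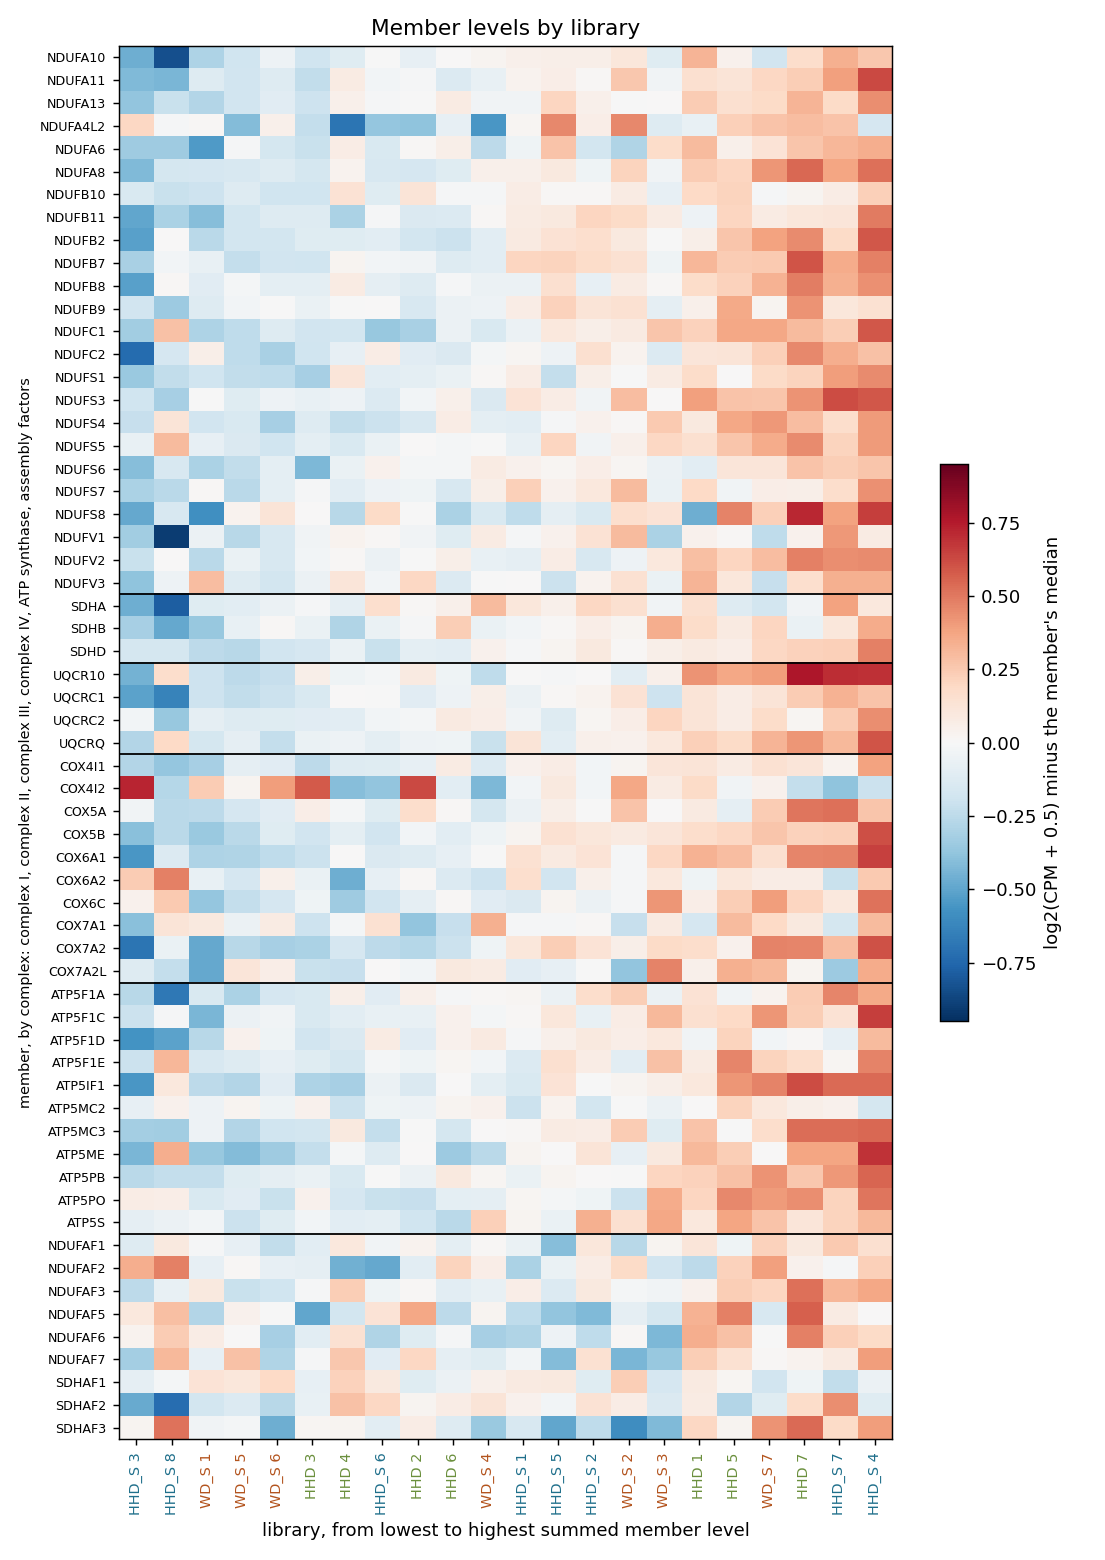
Level of tested members (rows, by complex) in each library (columns, ordered from the lowest to the highest summed member level, labels coloured by group), as log2(CPM + 0.5) minus the member's median. HHD_S 3 and HHD_S 8 form the low end and HHD 7, HHD_S 7 and HHD_S 4 the high end, and libraries of each group are spread along the order.

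The spread of single members over pigs was somewhat smaller than that of all genes with the same minimum level. Levels above that minimum were not matched. Among 57 members with a mean of at least 5 CPM the coefficient of variation had a median of 16.2%, beside 18.1% over 10488 genes with the same minimum, and 44 of the 57 lay under the latter. The steadiest were ATP5MC2 (6.998%, 229 to 305 CPM), SDHAF1 (9.41%, 11.8 to 16.4 CPM) and NDUFB10 (9.56%, 56.2 to 76.0 CPM). The most variable were NDUFS8, an iron-sulfur core subunit of complex I (25.2%), UQCR10 (24.9%), ATP5IF1 (22.8%), COX7A2 (22.7%) and ATP5ME (21.8%). NDUFS8 was 54.8, 89.3 and 96.1 CPM in the lowest, median and highest WD_S pig, 58.7, 76.0 and 130 CPM in HHD_S, and 59.3, 81.9 and 135 CPM in HHD. Its highest values came from HHD 7 and HHD_S 4.

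Library by library, HHD_S 4 was the highest of 22 for 26 members, HHD 7 for 15 and HHD_S 7 for 11. HHD_S 3 was the lowest for 22 members and HHD_S 8 for 16. In HHD_S 4, 57 of 62 members were above their median, by a median of 0.40 on the log2 scale. UQCR10 was at 112 CPM there, against a median of 68.7 CPM over libraries, and COX6A1 at 475 CPM against 302 CPM. In HHD_S 3 the median deviation was -0.29, with NDUFC2, an accessory subunit of complex I, at 25.0 CPM against 41.9 CPM. COX4I2 was at its highest in that library (1.90 CPM) and ATP5PO, a stalk subunit of ATP synthase, was near its median (284 against 271 CPM).

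Cell type markers also differed between these libraries, not always in the same direction. The 3 libraries with the highest summed member level, HHD_S 4, HHD_S 7 and HHD 7, had smooth muscle marker sums of 495, 497 and 392 CPM, beside a median of 898 CPM over all libraries. HHD_S 3, the lowest for members, had the highest smooth muscle sum (1476 CPM) and the lowest enterocyte sum (22730 CPM, all 12 markers tested). HHD_S 8, the second lowest for members, had the lowest smooth muscle sum of all (370 CPM) and an enterocyte sum of 32560 CPM. Enterocyte sums ranged from 31870 to 61070 CPM in WD_S, from 22730 to 64540 CPM in HHD_S and from 29670 to 58930 CPM in HHD. In HHD 7, with members high, the enterocyte sum was also low (31780 CPM). Markers of fibroblasts and endothelium (9 tested) summed to 775 to 2842 CPM in WD_S, 573 to 2246 CPM in HHD_S and 588 to 2927 CPM in HHD. HHD_S 4 and HHD_S 7, both high for members, differed from each other in the sums of other cell types. HHD_S 4 had the lowest sums of all libraries for crypt and dividing cells (448 CPM, 7 markers) and for macrophages (885 CPM, 8 markers). HHD_S 7 had the highest sum for T and natural killer cells (854 CPM, 7 markers), a crypt sum of 1746 CPM and a macrophage sum of 4476 CPM. Of the markers in these 6 lists that had a row, none was at 0 in every library, and their part in the member levels was not tested.

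HHD_S 8 was low in its own way. Its summed level was the second lowest, but 22 of its 62 members lay above their median, with a median deviation of -0.14. Fewer did so in several other libraries, among them WD_S 1 (9), WD_S 6 (8) and HHD 3 (7). In HHD_S 8 SDHA stood at 199 CPM, where the other libraries had 248 to 446 CPM, and the complex II sum was the lowest of all (566 CPM). NDUFV1, which binds NADH and flavin in complex I, was at 38.6 CPM against a median of 72.6 CPM, and NDUFA10 at 44.4 against 79.6 CPM. SDHAF2, which puts the flavin into SDHA, was at 24.1 against 40.0 CPM, ATP5F1A at 401 against 642 CPM, and UQCRC1 at 169.5 against 263 CPM. Other members were high in the same library: COX6A2 (33.0 against 23.5 CPM), SDHAF3 (4.62 against 3.08 CPM), NDUFAF2 (7.42 against 5.19 CPM), ATP5ME (106 against 83.5 CPM) and ATP5F1E (333 against 268 CPM). SDHA per read of SDHD was 0.890 there and 1.05 to 1.77 in the other libraries. The enzymes of the tricarboxylic acid cycle and pyruvate dehydrogenase (18 genes) were also lowest in HHD_S 8, at 2754 CPM, beside a median of 4071 CPM. These members were picked for their deviation in this library and carry no test.

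The subunits encoded by mitochondrial DNA followed another order. Of 13, 12 were tested, ATP8 having at most 7 reads in a library. Their summed level was 72330 ± 16670, 77210 ± 20360 and 82310 ± 13800 CPM (SD) in WD_S, HHD_S and HHD. The lowest library was WD_S 1 (52130 CPM) and the highest HHD_S 4 (122500 CPM). They followed one another closely (median rho 0.754 over 66 pairs) and the nuclear members more weakly (median rho 0.22 over 744 pairs). Of these 744 pairs 89.25% were positive, beside 49.67% over all genes. The ratio of the 2 sums ran from 7.42 in HHD_S 7 to 13.3 in HHD 5 and WD_S 3, with group means of 9.96 ± 1.78, 10.3 ± 1.93 and 10.9 ± 1.36 in WD_S, HHD_S and HHD (SD, n = 7, 8 and 7). None of the 12 had an unadjusted p under 0.05 in any of the 3 comparisons by edgeR, and their median log2 fold changes were -0.04, -0.11 and -0.14. In the 5 libraries of high title numbers all 12 were on the low side (median -0.26), beside 6567 of 13626 genes. There 3 of the 12 had an unadjusted p under 0.05 by edgeR, beside 22.5% of all genes. All 12 were also lower in pool 4 than in pool 3 (median -0.23), beside 6824 of 13626 genes. Between the pools 4 of the 12 had an unadjusted p under 0.05 by edgeR, beside 4.42% of all genes.

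**Figure D5:**
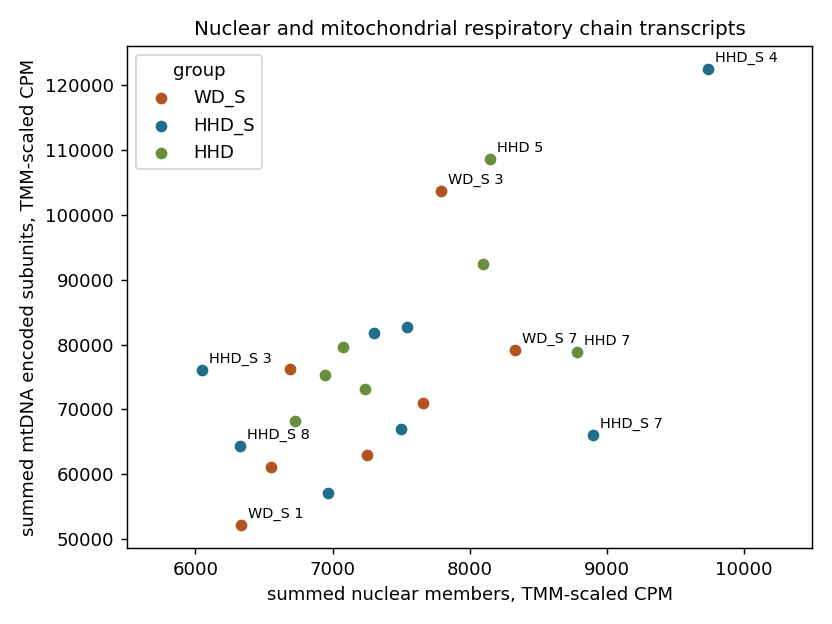
Summed TMM-scaled CPM of the nuclear members (horizontal axis) and of the subunits encoded by mitochondrial DNA (vertical axis) in each pig, coloured by group. HHD_S 4 is highest on both axes, while HHD_S 7 is second highest for the nuclear members at 8900 CPM and has 66010 CPM on the vertical axis.

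The wider pathway was taken as lists, and no gene of them passed the adjusted threshold in any of the 3 comparisons by edgeR. The lists of assembly factors overlap the genes above: 6 of 15 for complex I and 3 of 29 for complexes II to V are members and are counted here again, and 2 of the 15 are among the 20 genes named through a table below. CYCS, the electron carrier cytochrome c, ranged from 99.7 CPM in WD_S 5 to 376 CPM in HHD_S 4, with log2 fold changes of -0.19, -0.18 and -0.36. CYC1, its partner in complex III, had -0.05, -0.04 and -0.10. Of 15 complex I assembly factors, 13, 10 and 12 were negative in the 3 comparisons, with 0, 0 and 2 at an unadjusted p under 0.05 (NDUFAF4, log2 fold change -0.51, and the member NDUFAF6). Of 29 assembly factors of complexes II to V, 24, 12 and 20 were negative, with 1 at an unadjusted p under 0.05 in each comparison (UQCC1, COX11 and BCS1L). Over all genes 52.9%, 47.4% and 51.0% were negative in the 3 comparisons. The shares with an unadjusted p under 0.05 by edgeR were 2.92%, 1.81% and 3.41%. In WD_S against HHD_S UQCC1, which helps to build complex III, had -0.23 (SE 0.109), and LYRM7, a chaperone of its iron-sulfur protein, -0.35 (SE 0.191).

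Among 20 regulators of mitochondrial biogenesis 1 had an unadjusted p under 0.05, in WD_S against HHD, beside 3.41% of all genes by edgeR. That was TFB2M, a mitochondrial transcription factor (log2 fold change -0.39, SE 0.179), and TWNK, the mitochondrial helicase, came next (-0.19, SE 0.113). PPARGC1A, the coactivator known for driving respiratory genes, was 22.2, 55.2 and 71.9 CPM in the lowest, median and highest WD_S pig. It was 24.8, 52.3 and 70.2 CPM in HHD_S, and 26.4, 35.6 and 53.8 CPM in HHD. Its log2 fold changes were 0.07 in WD_S against HHD_S, 0.31 in HHD_S against HHD and 0.38 in WD_S against HHD (SE 0.231, 0.232 and 0.246).

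Import and translation genes were mostly on the low side in all 3 comparisons, and most often in WD_S against HHD. In WD_S against HHD_S, 13 of 18 import genes, 46 of 67 mitochondrial and 35 of 52 cytosolic ribosomal proteins were negative, beside 52.9% of all genes. In HHD_S against HHD these counts were 16, 49 and 44, beside 47.4% of all genes. In WD_S against HHD, 51.0% of all genes were negative and 3.41% had an unadjusted p under 0.05 by edgeR. Of 18 import genes 17 were negative (median -0.13) and 3 had an unadjusted p under 0.05, all chaperones of the matrix: HSPA9 (log2 fold change -0.27, SE 0.109), HSPD1 (-0.54, SE 0.231) and HSPE1 (-0.52, SE 0.243). Each had an adjusted p of 0.9997 by edgeR. Of 67 mitochondrial ribosomal proteins 51 were negative (median -0.09) with 5 at an unadjusted p under 0.05, MRPL51 (-0.40, SE 0.165) and MRPL18 (-0.31, SE 0.128) having the smallest. Of 52 cytosolic ribosomal proteins 51 were negative (median -0.07) and 0 had an unadjusted p under 0.05. In the libraries of high title numbers, 16 of the 18 import genes were on the high side, beside 7059 of all 13626 genes. So were 53 of the 67 mitochondrial ribosomal proteins and 42 of the 52 cytosolic ones. In the 3 lists 1, 4 and 0 genes passed the adjusted threshold by edgeR, beside 5.59% of all genes. The part of these libraries in the WD_S against HHD values was not tested. In WD_S against HHD_S the cytosolic set had RPL10A at 0.13 (SE 0.0968) and RPL23A at -0.16 (SE 0.115) with its smallest p-values.

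Among the lists that feed the chain, no gene passed the adjusted threshold. Over all genes 52.9% were negative in WD_S against HHD_S and 2.92% had an unadjusted p under 0.05 by edgeR. In WD_S against HHD_S, 11 of 18 genes of the tricarboxylic acid cycle and pyruvate dehydrogenase were positive (median 0.03), with citrate synthase CS at 0.21 (SE 0.136) and PDHX at -0.13 (SE 0.112). Of 18 glycolysis genes 15 were positive (median 0.11), with ALDOC at -0.29 (SE 0.15), and 0 had an unadjusted p under 0.05. In the libraries of high title numbers 15 of these 18 were on the low side (median -0.26), beside 6567 of all 13626 genes. Of 6 carriers of adenine nucleotides and phosphate, 3 were positive. CKMT2, a mitochondrial creatine kinase of muscle with 0.0964 to 1.23 CPM, had -1.21 (SE 0.465, unadjusted p = 0.0163, adjusted p = 0.9995, edgeR). SLC25A5, the main ATP carrier of dividing cells, had 0.35 (SE 0.213).

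Another 20 genes of these families carry only an identifier in the files and were named through a table of gene names, so they fall outside the members. Of the 20, 16, 7 and 16 were negative in the 3 comparisons, with medians of -0.10, 0.01 and -0.08. The negative shares over all genes were 52.9%, 47.4% and 51.0%. An unadjusted p under 0.05 was found for 0, 0 and 1 of them by edgeR (NDUFAF4, WD_S against HHD, unadjusted p = 0.0259, adjusted p = 0.9997). NDUFA4, named for complex I and now counted with complex IV, was 15.4, 19.6 and 22.5 CPM in the lowest, median and highest WD_S pig. It was 17.0, 22.2 and 35.0 CPM in HHD_S, and 17.9, 23.7 and 28.7 CPM in HHD (log2 fold change of WD_S against HHD_S -0.28, SE 0.146, unadjusted p = 0.0719, edgeR). COX7B was 115 to 290 CPM and COX8A 138 to 236 CPM over all libraries, and the groups overlapped for both.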

How the data were processed

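RNA of jejunal mucosa with an RNA quality indicator above 8 was sequenced as single reads of 150 bases, per the labels' protocols. The authors mapped reads to annotated Sus scrofa 11.1 in the CLC workbench and deposited, per the file headers, unique exon read counts per gene for each library. The workbench version, mapping settings and use of strand were not given in the sources used here. Of 24358 rows, 17332 carried a symbol, 1073 were named through a table of gene identifiers and 5953 stayed unnamed. RefSeq coordinates and overlaps were found for 54 of the 63 members. Libraries were compared pair by pair and none repeated another (smallest reduced chi-square 24.7 over 231 pairs).

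Counts were filtered with filterByExpr (minimum 10), scaled by TMM (factors 0.89 to 1.12) and fitted with the quasi-likelihood test of edgeR 4.0.16 in R 4.3.3, with group and library pool as terms, over 13626 genes with Benjamini-Hochberg adjustment. The pool (13 libraries in pool 3 and 9 in pool 4) was read from names in the deposited files. The SE is the size of the fold change over the square root of F. The biological coefficient of variation was 25.9%, and 18 residual degrees of freedom remained. Replicates are separate pigs, so p-values measure the spread between pigs. Alternatives were DESeq2 1.42.0, limma 3.58.1 with voom quality weights, other scalings and filters, each pool alone, each library left out, and sets of libraries that stood apart, the last chosen after seeing the data. The fit was also tested on simulated data, for WD_S minus HHD_S. Of the genes changed there, it called 4% at 1.25-fold, 55.1% at 1.5-fold, 80% at 2-fold and 92% at 3-fold. It also called 7 unchanged genes. Changes of 1.25-fold were thus mostly missed. Members and gene lists were chosen with earlier results of these data known.

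Genes were named by a rule: the 2 most and the 1 least read member of each complex, the 5 smallest p-values of each comparison, the 5 most and 3 least variable members, isoform families, and the 2 smallest p-values of each pathway list. Other genes were named for the values shown beside them. Single values of a few genes that this rule names are not reported here, and the counts include them.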

Additional observations from a re-analysis of the deposited data

Results flagged for a closer look

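In 126 groups of 7 or 8 pigs, 8 had 1 library far from the others by Dixon's test at the 95% level. Chance gives such a gap in about 1 group in 20, which in 126 groups is a count not far below 8. The 8 are therefore listed as descriptions only. The rate is also not exact here, because members move together from pig to pig. UQCR10 and ATP5IF1 were moreover among the genes named for their large spread. None of the 8 was a low value. HHD_S 4 was the library in 3 cases: ATP5F1C at 459.6 CPM with the next HHD_S pig at 321.3 CPM, COX7A2L at 96.57 CPM with the next at 75.87 CPM, and COX7B, named through the table, at 290.1 CPM with the next at 199.0 CPM. WD_S 7 was far above the other WD_S pigs for UQCR10 (90.49 CPM, next 71.03 CPM) and for ATP5IF1 (179.9 CPM, next 134.6 CPM). HHD 7 was far above the other HHD pigs for SDHAF3 (4.695 CPM, next 3.596 CPM). HHD_S 3 held the highest COX4I2 of its group (1.896 CPM, next 1.044 CPM), and HHD_S 2 the highest COX8C (3.494 CPM, next 0.8071 CPM), on 72 reads.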

How the results depend on the processing

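Each comparison was repeated under 36 alternatives, of which 22 left out 1 library, and in none of them did a member pass an adjusted p of 0.05. The median log2 fold change of members ran from -0.12 to 0.02 for WD_S minus HHD_S, from -0.11 to 0.07 for HHD_S minus HHD and from -0.10 to -0.003 for WD_S minus HHD. For HHD_S minus HHD the median was above 0 under 8 of the 36, among them limma (0.01) and pool 3 alone (0.04). NDUFAF7 in WD_S minus HHD_S changed sign in library pool 4 alone (0.0281, against -0.19), where the cause was not tested. With total counts or RLE factors the lowest summed member level was 6037 to 6354 CPM and the highest 9282 to 9652 CPM. The libraries at the ends changed with total counts. As a share of all raw counts, members were lowest in WD_S 5 (0.635%) and highest in HHD 7 (0.928%). HHD_S 3 had 0.680% and HHD_S 4 had 0.902%. No paired analysis was possible because the replicate numbers follow accession order and pair no pigs. Depth limits COX8C and COX4I2 (11 to 46 reads per library), and the number of pigs limits the intervals, with a median SE of 0.13 to 0.14 over members.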
